A study of Mus musculus with 6 samples.

Results

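The genes for the core proteins of the spliceosome were examined in immortalized cultured wild-type mouse proximal tubular epithelial cells (PTECs) after lipid overload. Members were taken by gene symbol, under a rule drawn up with earlier results of these data known. It took every gene of the table whose symbol begins with Snrp, U2af, or Lsm, Prpf, Sf3a or Sf3b followed by a digit. Sf1 and Zmat2 were added by name. This rule gave 52 genes of the 24421 in the table, and 51 of them passed the expression minimum (a mean of at least 0.5 RPKM, a read count scaled to gene length and library size) that 11671 genes passed. The remaining member, Snrpn, was listed at 0 RPKM in every library. One cell line was compared under 2 conditions: 3 libraries (BSA) came from wild-type PTECs given bovine serum albumin for 6 hours, and 3 libraries (PA) came from the same wild-type PTECs given albumin loaded with palmitic acid, a saturated fatty acid, for 6 hours. Both groups therefore carried the immortalization and the albumin, and the groups differed in the fatty acid. The palmitic acid was dissolved in NaOH before it was mixed with albumin, and whether the BSA control received NaOH is not stated. No source used here states whether a group's libraries were grown as independent cultures; a p-value here reflects how far these libraries scatter, and that scatter may be technical. Because the RNA was bulk, fewer cells of a type and less RNA per cell cannot be told apart.

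Splicing removes introns from pre-mRNA. It is carried out by small nuclear ribonucleoproteins (snRNPs), each built of a small nuclear RNA and proteins. U1, U2, U4 and U5 RNA each carry a ring of Sm proteins, encoded by Snrp genes, whereas U6 RNA carries a related ring of LSM proteins. U1 reads the 5′ splice site, U2 with the SF3A and SF3B complexes holds the branch site, U2AF reads the 3′ splice site, and the U4/U6.U5 tri-snRNP brings in the PRPF proteins that form and remodel the catalytic centre. These genes are expressed in nearly every cell, kidney tubule included.

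Recovered library sizes ran from 17679817 to 21568228 reads. The members were covered by 137 to 19670 reads in a library, and their median BSA level was 67.9 RPKM, against 11.5 RPKM over all genes tested. The cells expressed 5 of 12 proximal tubule markers above a mean of 1 RPKM (among them Lrp2, Aqp1, Pax8 and Cdh16) and did not express the other 7 above it, including Cubn and Slc34a1. The 12 summed to 202 to 231 RPKM in BSA and 189.5 to 209 RPKM in PA. Krt8 and Krt18 were the expressed epithelial markers, and the summed level of the 4-gene epithelial list was 685 to 733 RPKM in BSA and 558 to 591 RPKM in PA. The summed levels of the 5 fibroblast markers were 2.30 to 2.50 RPKM in BSA and 1.39 to 1.97 in PA, those of the 4 endothelial markers 4.24 to 4.58 and 4.65 to 5.28, and those of the 4 immune markers 11.3 to 14.8 and 12.1 to 15.0. The 6 markers of other nephron segments summed to at most 0.27 RPKM in any library, with Umod at 0 in all of them. The epithelial, fibroblast and endothelial sums did not overlap between the groups, and their part in the splicing results was not tested. Library BSA replicate 3 differed most from the other libraries of its group, and for members described one by one whose call turned on it the value without it is given.

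The promoters of 3 members that fell and kept their call in at least 17 of 18 alternative analyses are shown first. These genes were picked by that result. Motifs searched for were found in the first and second and not in the third. Each run is the 150 bases before the gene start on the gene's own strand, 5′ to 3′, from RefSeq on GRCm38.p6: Lsm8 at chr6:18848485-18848634 (plus strand), Sf3b6 at chr12:4817458-4817607 (plus strand) and Snrpe at chr1:133610281-133610430 (minus strand). The RefSeq starts lie inside the GENCODE gene models whose positions are given further on, so the last bases of each run fall within those models. Capitals mark an ETS motif (CCGGAAG), an NRF1 motif (GCATGCGC) or a GC box (GGGCGG), read on either strand.
Lsm8: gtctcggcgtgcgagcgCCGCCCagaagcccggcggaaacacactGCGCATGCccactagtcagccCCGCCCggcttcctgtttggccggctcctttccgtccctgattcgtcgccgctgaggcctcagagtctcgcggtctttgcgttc
Sf3b6: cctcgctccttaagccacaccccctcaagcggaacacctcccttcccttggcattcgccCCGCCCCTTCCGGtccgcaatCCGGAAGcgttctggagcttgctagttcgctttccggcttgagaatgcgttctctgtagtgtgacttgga
Snrpe: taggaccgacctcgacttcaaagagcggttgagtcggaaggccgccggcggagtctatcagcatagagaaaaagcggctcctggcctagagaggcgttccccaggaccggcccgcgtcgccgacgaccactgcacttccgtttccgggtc
Counted from the gene start, Lsm8 held an NRF1 motif at -105 to -98 between 2 GC boxes at -133 to -128 and -84 to -79. Sf3b6 held ETS motifs at -85 to -79 and -70 to -64, and a GC box at -91 to -86 that abuts the first of them without overlap. Snrpe held none of the 8 motifs searched, which says only that these letters are not in this window.

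Promoter sequence was matched for 40 of the 51 tested members and for 8740 of the 11671 genes tested, and the motifs were counted on both strands of the 250 bases before the start. An ETS motif lay in 12 of the 40 member promoters (30%) and in 15.2% of all promoters of the same length, and an NRF1 motif in 5 (12.5%) and 4.97%. The shares for a CCAAT box (CCAAT) were 42.5% and 37.1%, for a GC box 57.5% and 62.5%, for an E-box (CACGTG) 7.5% and 8.73%, and for a TATA box (TATAAA) 5% and 5.72%. No member promoter held a YY1 motif (AAGATGGC, 2.27% of all promoters) or the composite element of ATF4 and CHOP (TGATGNAA, 1.84%). Among the 12 members that fell and had a promoter sequence, 4 held an ETS motif (Sf3b6, Snrpc, Sf3a3 and Sf3b2) and 2 an NRF1 motif (Lsm8 and U2af1l4). These shares describe letters in the sequence and were not tested.

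With PA, the transcripts of 13 of the 51 tested splicing genes fell and none rose. The genes that fell were Zmat2, Lsm8, Snrpe, Sf3b6, Sf3a3, U2af1, Lsm7, U2af1l4, Snrpd2, Prpf38a, Snrpc, Sf3b1 and Sf3b2, with log2 fold changes of -0.33 to -0.09, that is changes of -20.3% to -6.21%. Over all 11671 genes tested, 9.52% were lower and 11.2% were higher with PA by the same test (limma on log2(RPKM + 0.1), Benjamini-Hochberg adjusted p under 0.05), against 25.5% and 0 of the members. At an unadjusted p under 0.05, 24 members were lower and 1 was higher, beside 2287 lower and 1889 higher of the 11671 genes tested. Limma's voom on recovered reads called 16 members lower (31.4%) and 0 higher, beside 1437 lower (12.3%) and 1483 higher of all genes. All PA libraries lay below all BSA libraries in 26 of 51 members (51.0%) and in 22.3% of all genes tested. The reverse held for 1 member, Lsm11, and for 18.2% of all genes. The fitted fold change was below 0 in 42 of 51 members (82.4%) and in 59.1% of all genes, and the median log2 fold change was -0.10 over the members and -0.04 over all genes tested. Splicing genes are abundant, so the same shares were taken at high levels: of the 6314 genes with a mean of at least 10 RPKM, 12.0% were lower and 14.4% higher, and of the 48 members at that level 13 were lower and 0 higher. The number of members that fell was 9 (17.6%), 5 (9.80%) and 18 (35.3%) without BSA replicate 1, 2 and 3, where 5.39%, 3.97% and 14.1% of all genes fell. It was 5 (9.80%), 4 (7.84%) and 4 (7.84%) without PA replicate 1, 2 and 3, where 6.76%, 3.35% and 3.78% of all genes fell. Scaling by median-of-ratios factors left 6 members (11.8%, beside 6.91% of all genes), and removing each library's trend with GC content left 6 (11.8%, beside 9.07%), and the 6 were the same genes: Zmat2, Lsm8, Snrpe, Sf3b6, Snrpc and Snrpd2. With trends in GC content and transcript length both removed, 5 members fell (9.80%), close to the 9.44% of all genes.

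**Figure D1:**
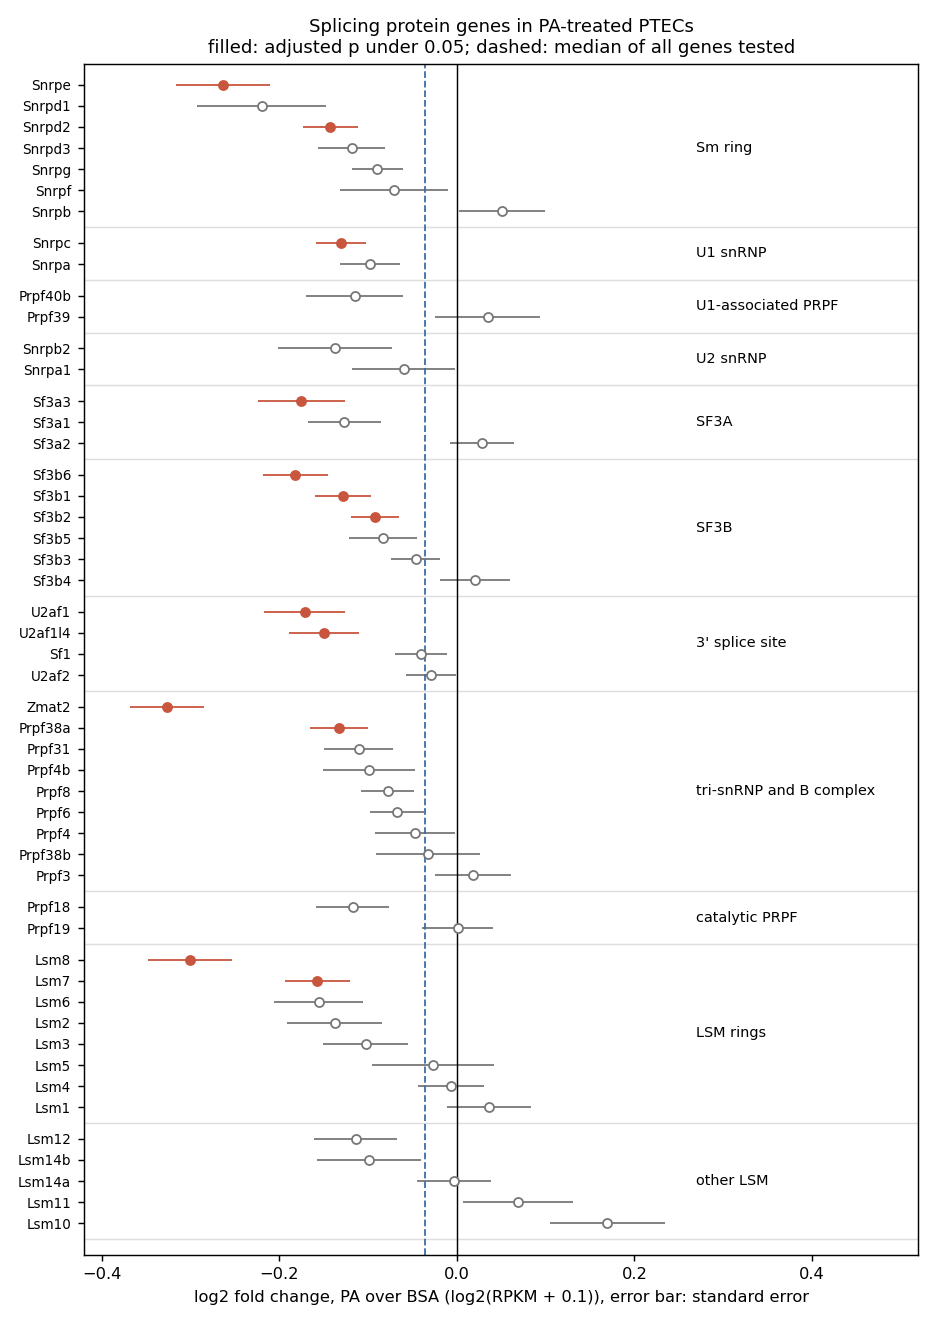
Log2 fold change, PA over BSA on log2(RPKM + 0.1), of tested splicing genes, grouped by family, with bars for the standard error; filled points passed at adjusted p under 0.05 and the dashed line is the median of all genes tested. All 13 filled points lie left of 0, from Zmat2 at -0.33 to Sf3b2 at -0.09, and Lsm10 lies farthest right at 0.17.

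In the Sm ring, the shared core of the spliceosomal snRNPs, 2 of 7 tested subunits fell, Snrpe and Snrpd2. Snrpe (SmE; chr1:133603871-133610291 on GRCm38, as all gene positions here, from GENCODE vM21) stood at 257, 252 and 286 RPKM in BSA and at 211, 225 and 225 RPKM in PA. The groups did not overlap, and BSA replicate 3 was the highest. Its log2 fold change was -0.26 (SE 0.053, limma adjusted p = 0.0125), and -0.21 without BSA replicate 3 (adjusted p = 0.0060). The call was lost only when trends with GC content and transcript length were both removed (log2 fold change -0.17, adjusted p = 0.0606). Snrpd2 (SmD2; chr7:19149722-19153542) measured 189, 190.2 and 185 RPKM in BSA and 167, 176 and 168 RPKM in PA, again with no overlap and with tighter BSA values than Snrpe. For Snrpd2 the log2 fold change was -0.14 (SE 0.031, limma adjusted p = 0.0172). Its call held in 12 of 18 alternatives. Among others, the call was lost when BSA replicate 1, BSA replicate 2, PA replicate 1 or PA replicate 3 was left out, at adjusted p of 0.0505, 0.0675, 0.0588 and 0.0734.

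Of the other Sm subunits, 3 had every PA library below every BSA library and did not pass the test. Snrpd1, the ring partner of SmD2, measured 162, 165 and 198 RPKM in BSA and 146, 155 and 148 RPKM in PA, and the wide BSA spread came from replicate 3. The Snrpd1 log2 fold change was -0.22 (limma adjusted p = 0.0699) and without that library -0.13 (adjusted p = 0.0234). Snrpd3 measured 303, 303 and 322 RPKM against 274, 292 and 289 RPKM (-0.12, adjusted p = 0.0599). Snrpg, the most abundant member, measured 385, 376 and 367 RPKM against 349, 355 and 357 RPKM (-0.09, adjusted p = 0.0658), and it passed without BSA replicate 3 (-0.11, adjusted p = 0.0165). The groups overlapped for both remaining subunits. Snrpf measured 95.8, 90.5 and 92.3 RPKM against 80.2, 95.2 and 90.4 RPKM (-0.07, adjusted p = 0.447), and 65.9% of its exon bases are shared with Ccdc38 on the opposite strand. Snrpb measured 259, 253 and 230 RPKM against 247, 260 and 261 RPKM (0.05, adjusted p = 0.485). Snrpb and the imprinted Snrpn encode near-identical proteins, so reads could be split between them and both values are uncertain. Within single libraries, the ratio of Snrpe to Snrpb was 0.993, 0.996 and 1.25 in BSA and 0.855, 0.866 and 0.865 in PA, a pair chosen after the values were seen.

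The LSM proteins form 2 rings that share most subunits. Lsm8 is found in the nuclear ring on the 3′ end of U6 RNA, and Lsm1 takes its place in the cytoplasmic ring that promotes mRNA decapping. Lsm8 (chr6:18848579-18855751) stood at 71.2, 70.8 and 79.3 RPKM in BSA and at 60.5, 59.1 and 59.9 RPKM in PA, so the PA libraries lay close together and well below the lowest BSA library. Its log2 fold change was -0.30 (SE 0.047, limma adjusted p = 0.0044). It passed in all 18 alternatives, with an adjusted p of at most 0.0261. Lsm1 measured 23.1, 24.0 and 23.7 RPKM in BSA and 22.7, 24.9 and 25.1 RPKM in PA, and the groups overlapped (0.04, adjusted p = 0.618). The ratio of Lsm8 to Lsm1 was 3.09, 2.95 and 3.35 in BSA and 2.66, 2.37 and 2.39 in PA, without overlap. This pair too was chosen after its values were seen.

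Of the shared LSM subunits, Lsm7 fell and the other 5 did not pass. Lsm7 (chr10:80852821-80855209) measured 153, 165 and 160 RPKM in BSA and 139, 145 and 144 RPKM in PA, with no overlap. For Lsm7 the log2 fold change was -0.16 (SE 0.037, limma adjusted p = 0.0221), and the call held in 10 of 18 alternatives. Among others, it was lost without BSA replicate 2 (adjusted p = 0.0780) and without PA replicate 1, 2 or 3 (0.0716, 0.0625 and 0.0663). Lsm6 measured 25.3, 24.9 and 27.6 RPKM against 22.6, 24.1 and 23.0 RPKM, with no overlap (-0.16, adjusted p = 0.0624). Lsm2 measured 100.2, 103 and 88.9 RPKM against 89.1, 87.0 and 88.6 RPKM, and BSA replicate 3 alone reached down to the PA values (-0.14, adjusted p = 0.108). Without that library its log2 fold change was -0.20 (adjusted p = 0.0023). Lsm3 measured 86.3, 91.6 and 95.6 RPKM against 80.9, 88.1 and 85.6 RPKM (-0.10, adjusted p = 0.166). For Lsm5 the values were 62.2, 52.5 and 63.2 RPKM against 58.2, 59.0 and 56.8 RPKM (-0.03, adjusted p = 0.809). Lsm4 showed 171, 172 and 161 RPKM against 164, 165 and 173 RPKM (-0.01, adjusted p = 0.919). In these last 3 genes the groups overlapped.

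**Figure D2:**
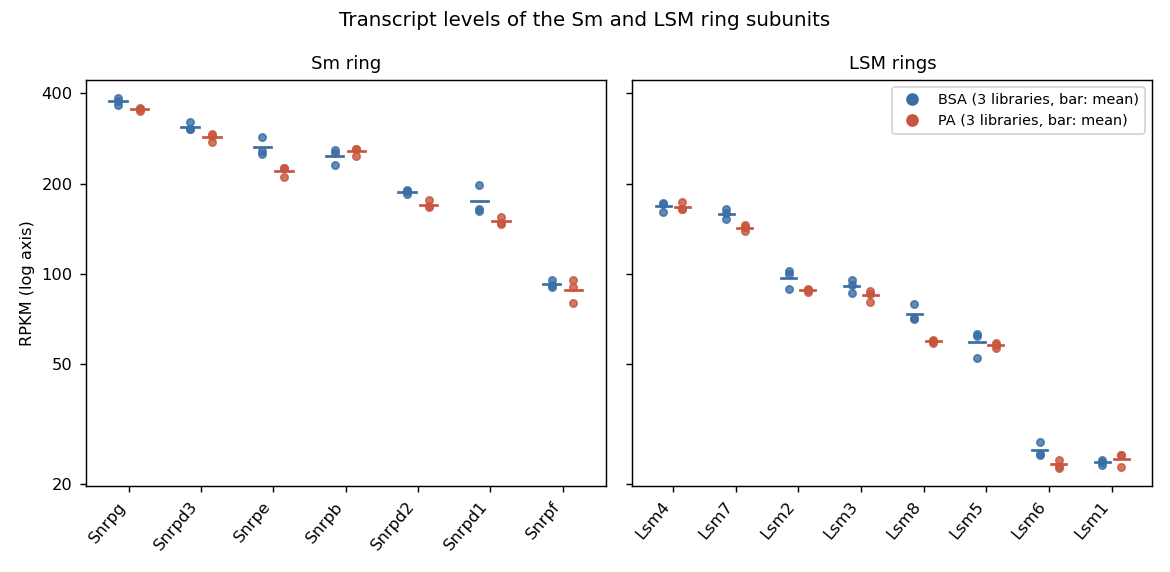
Level in RPKM (log axis) of each Sm ring and LSM ring subunit, with 1 point per library, 3 BSA and 3 PA libraries, and a bar at each group's mean. The Sm subunits run from Snrpg near 376 RPKM down to Snrpf near 93 RPKM, and PA lies lowest against BSA for Lsm8 and Snrpe.

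The RPKM levels of the ring subunits were far from equal although a ring holds each protein once. Protein was not measured in these libraries. RPKM compared between genes also rests on the length used for each gene, 750 bases for Lsm8 against 3305 in its longest transcript. Snrpf, the lowest Sm subunit, shares 65.9% of its exon bases with Ccdc38. Mean BSA levels ran in the Sm ring from 376 RPKM (Snrpg) through 310 (Snrpd3), 265 (Snrpe), 247 (Snrpb), 188 (Snrpd2) and 175 (Snrpd1) to 92.8 RPKM (Snrpf). The ranges of Snrpe and Snrpb, and of Snrpd2 and Snrpd1, overlapped over their 3 BSA libraries. In the LSM rings the mean BSA levels ran from 168 RPKM (Lsm4) and 159 (Lsm7) through 97.2 (Lsm2), 91.1 (Lsm3), 73.8 (Lsm8) and 59.3 (Lsm5) to 25.9 (Lsm6) and 23.6 RPKM (Lsm1). Of these neighbours, Lsm4 and Lsm7, and Lsm2 and Lsm3, overlapped in BSA.

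**Figure D3:**
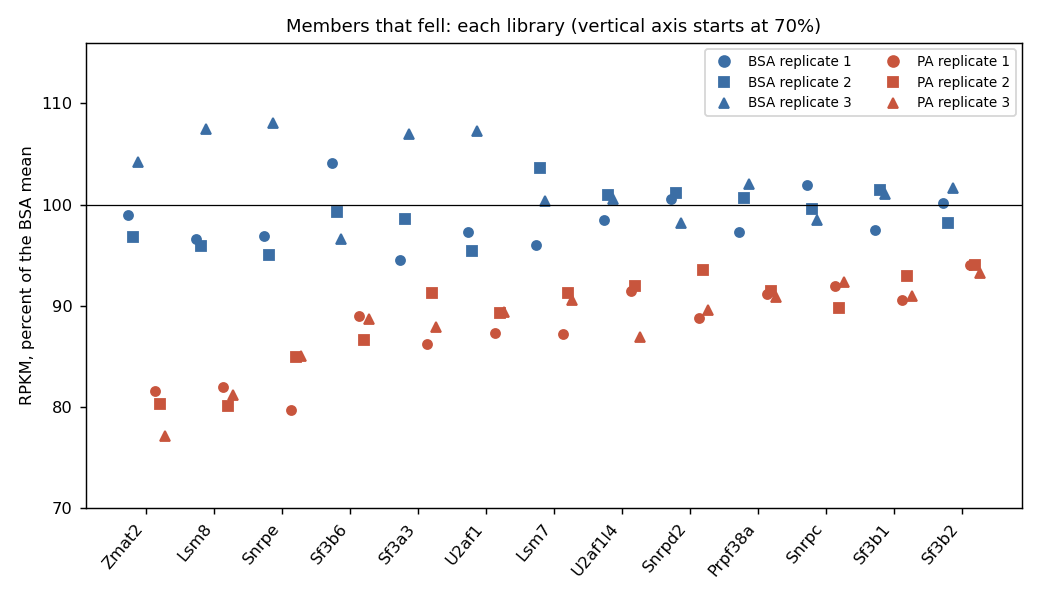
RPKM of each library as a percent of the gene's BSA mean, for the 13 splicing genes that fell, ordered by fold change; circles, squares and triangles are replicates 1, 2 and 3, and the vertical axis starts at 70%. Every PA point lies below every BSA point of its gene, and BSA replicate 3 is the highest BSA point in 7 of the 13 genes.

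Of the U1 proteins, Snrpc fell. Snrpc (U1-C; chr17:27838150-27851968), which steadies the pairing of U1 with the 5′ splice site, measured 180.3, 176 and 174 RPKM in BSA and 163, 159 and 163 RPKM in PA, without overlap. Its log2 fold change was -0.13 (SE 0.028, limma adjusted p = 0.0169), and its call held in 13 of 18 alternatives. Among others, the call was lost without BSA replicate 1 or 2 (adjusted p = 0.0527 and 0.0555) and without PA replicate 2 or 3 (0.0851 and 0.0536). Snrpa (U1-A), which binds a stem-loop of U1 RNA, measured 87.0, 82.4 and 84.0 RPKM against 77.7, 78.3 and 80.9 RPKM, also without overlap (-0.10, adjusted p = 0.0773). Prpf39, named after a yeast U1 protein, measured 15.4, 15.5 and 17.3 RPKM against 16.2, 17.2 and 15.8 RPKM, with overlap (0.03, adjusted p = 0.707). None of the 3 U1-associated PRPF genes passed limma's test, 0 at an unadjusted p under 0.05 and 0 by voom.

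At the branch site, 3 of 6 SF3B genes and 1 of 3 SF3A genes fell. Sf3b6 (p14; chr12:4817544-4827659), the small subunit that lies near the branch-point adenosine, measured 70.7, 67.4 and 65.6 RPKM in BSA and 60.5, 58.8 and 60.2 RPKM in PA. The PA libraries lay together below all BSA libraries, and BSA replicate 3 was the lowest of its group. The log2 fold change was -0.18 (SE 0.036, limma adjusted p = 0.0122), and the call was lost only without PA replicate 2 (adjusted p = 0.0611). Sf3b1 (chr1:54985169-55027481), the large subunit that clamps the branch helix, measured 63.9, 66.5 and 66.3 RPKM in BSA and 59.4, 60.9 and 59.6 RPKM in PA. Its groups did not overlap (log2 fold change -0.13, SE 0.031, adjusted p = 0.0254), and its call held in 10 of 18 alternatives. Among others, the call was lost without BSA replicate 2, or when PA replicate 1, 2 or 3 was left out (0.0919, 0.0775, 0.0709 and 0.0935). Sf3b2 (chr19:5273932-5295455), a partner of Sf3b4, measured 187, 183 and 189 RPKM in BSA and 175, 175 and 174 RPKM in PA. This was the smallest of the 13 declines (log2 fold change -0.09, SE 0.027, adjusted p = 0.0468), and it passed in 5 of 18 alternatives; without BSA replicate 1 or 2 its adjusted p was 0.104 and 0.0790, and without PA replicate 1, 2 or 3 it was 0.103, 0.142 and 0.145.

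The other SF3B genes did not pass. Sf3b5 measured 135, 137 and 126 RPKM in BSA and 124, 124 and 126 RPKM in PA, and BSA replicate 3 alone overlapped the PA libraries (log2 fold change -0.08, adjusted p = 0.158). Without that library its log2 fold change was -0.12 (limma adjusted p = 0.0116). Sf3b3, a scaffold subunit, measured 115.6, 115.9 and 118.7 RPKM against 112.6, 114.3 and 112.2 RPKM, with no overlap but a small difference (-0.05, adjusted p = 0.266). Sf3b4, which contacts pre-mRNA next to the branch site, measured 99.1, 91.7 and 92.1 RPKM against 93.8, 98.4 and 94.7 RPKM (0.02, adjusted p = 0.743). Of the SF3A complex, which joins SF3B to the U2 core, Sf3a3 (chr4:124714776-124732460) fell. It measured 76.0, 79.3 and 86.1 RPKM in BSA and 69.4, 73.5 and 70.7 RPKM in PA. No PA library reached the lowest BSA library (-0.17, SE 0.049, adjusted p = 0.0420), and the call held in 9 of 18 alternatives. Among others, it was lost without BSA replicate 2 (0.0919), or when PA replicate 1, 2 or 3 was left out (0.117, 0.0790 and 0.122). Sf3a1 measured 42.5, 41.2 and 45.1 RPKM against 39.6, 38.8 and 39.5 RPKM, without overlap (-0.13, adjusted p = 0.0636). Sf3a2 measured 72.9, 68.6 and 69.7 RPKM against 71.8, 69.9 and 73.7 RPKM, with overlap (0.03, adjusted p = 0.603).

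The U2 core proteins, which bind a stem-loop of U2 RNA as a pair, did not pass limma's test. Snrpb2 measured 60.0, 64.8 and 72.8 RPKM in BSA and 59.4, 59.0 and 60.7 RPKM in PA (-0.14, adjusted p = 0.17); its log2 fold change was -0.06 without BSA replicate 3 (adjusted p = 0.261), and it passed without BSA replicate 1 (-0.20, adjusted p = 0.0483). Snrpa1 measured 56.3, 56.9 and 64.6 RPKM against 54.2, 57.8 and 58.4 RPKM (-0.06, adjusted p = 0.499). BSA replicate 3 was the highest library for both, and the groups overlapped; 0 of these 2 genes passed at an unadjusted p under 0.05 and 0 by voom.

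At the 3′ splice site, both U2AF35-type genes fell and the other 2 did not pass. U2af1 (chr17:31647081-31658892), the subunit that reads the AG at the intron end, measured 223, 219 and 246 RPKM in BSA and 200.3, 205 and 205 RPKM in PA, without overlap. For U2af1 the log2 fold change was -0.17 (SE 0.045, limma adjusted p = 0.0343), and the call held in 8 of 18 alternatives. With 1 library left out, it was lost without BSA replicate 1 (0.0517) and without PA replicate 1, 2 or 3 (0.0964, 0.0972 and 0.0919). Removing GC and length trends gave its highest adjusted p (0.237). U2af1l4 (chr7:30563301-30565365), a paralog of U2af1, measured 18.3, 18.7 and 18.7 RPKM against 17.0, 17.0 and 16.1 RPKM. Its groups did not overlap either (-0.15, SE 0.040, adjusted p = 0.0353). Its call held in 6 of 18 alternatives. Among others, the call was lost without BSA replicate 1 or 2 (0.0609 and 0.112) and without PA replicate 1, 2 or 3 (0.0664, 0.0831 and 0.121). With 263 to 349 reads in a library, it was also lost with voom on recovered reads (adjusted p = 0.152), which called 1 of the 4 genes of this family. Of its exon bases, 65.6% are shared with the same-strand gene model Gm49396 and 7.19% with Psenen on the opposite strand, so its value is uncertain. U2af2, which binds the polypyrimidine tract as the partner of U2af1, measured 166, 165 and 172 RPKM in BSA and 163, 164 and 165 RPKM in PA (-0.03, adjusted p = 0.498), with overlap. Sf1, the first protein on the branch site, measured 104, 100.7 and 99.2 RPKM against 98.0, 99.1 and 98.2 RPKM (-0.04, adjusted p = 0.367), a gap of little width but no overlap.

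In the tri-snRNP and B complex family, 2 of 9 genes fell, and both encode proteins that join the spliceosome at the B complex stage. Zmat2 (chr18:36793876-36799666), a zinc finger protein whose yeast counterpart is Snu23, measured 36.0, 35.2 and 37.9 RPKM in BSA and 29.7, 29.2 and 28.1 RPKM in PA. This was the largest decline of any member, with a wide gap between the groups. The log2 fold change was -0.33 (SE 0.042, limma adjusted p = 0.0016), and it passed in all 18 alternatives with an adjusted p of at most 0.0108. Prpf38a (chr4:108563172-108579336) measured 43.5, 45.02 and 45.7 RPKM against 40.8, 40.9 and 40.7 RPKM. The PA values were nearly equal and below the BSA values (-0.13, SE 0.032, adjusted p = 0.0257), and the call held in 9 of 18 alternatives. Among others, it was lost without BSA replicate 2 (0.0875), or when PA replicate 1, 2 or 3 was left out (0.0699, 0.0888 and 0.0897). Its paralog Prpf38b measured 46.3, 44.9 and 52.8 RPKM against 47.1, 46.8 and 46.5 RPKM, with overlap (-0.03, adjusted p = 0.725). Prpf8, the scaffold of the catalytic centre, measured 121, 122 and 126 RPKM against 115, 118 and 118 RPKM, without overlap (-0.08, adjusted p = 0.106). The other 5 genes of the family (Prpf3, Prpf4, Prpf4b, Prpf6 and Prpf31) had log2 fold changes of -0.11 to 0.02 and did not pass.

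Neither catalytic-step PRPF gene passed limma's test, with 1 of the 2 lower at an unadjusted p under 0.05 and 0 by voom. Prpf19, the ubiquitin ligase that gives its complex its name, measured 66.0, 68.0 and 61.7 RPKM in BSA and 65.6, 65.2 and 64.9 RPKM in PA (0.00, adjusted p = 0.990). Prpf18, which acts in the second step of splicing, measured 16.0, 16.2 and 15.6 RPKM against 14.9, 14.9 and 14.2 RPKM, without overlap (-0.12, adjusted p = 0.0823).

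The other 5 Lsm genes lie outside the U6 ring, and none passed limma's test, with 1 lower and 1 higher at an unadjusted p under 0.05 and 0 by voom. Lsm10 and Lsm11, chosen for description after their values were seen, encode the subunits that set the U7 snRNP of histone mRNA processing apart from the spliceosomal snRNPs. Lsm10 measured 9.03, 9.90 and 8.49 RPKM in BSA and 10.5, 9.88 and 10.4 RPKM in PA, the largest positive fold change of any member (0.17, adjusted p = 0.104). With each library's GC trend removed it passed as higher (0.18, adjusted p = 0.0497). Lsm11 measured 4.06, 3.87 and 3.94 RPKM against 4.21, 4.11 and 4.14 RPKM, and all its PA libraries were higher (0.07, adjusted p = 0.461). Lsm12 measured 45.6, 43.4 and 45.7 RPKM against 44.1, 39.6 and 40.9 RPKM (-0.11, adjusted p = 0.125). Lsm14a, a protein of cytoplasmic mRNA granules, measured 39.6, 37.3 and 41.1 RPKM against 38.7, 39.2 and 39.8 RPKM (-0.00, adjusted p = 0.969), with overlap in both.

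Library BSA replicate 3 was the highest BSA library in 28 of 51 members and in 7 of the 13 that fell. Its difference from the mean of BSA replicates 1 and 2 went with base composition: over the 51 members, which share these 3 libraries, Pearson's r with GC content was -0.48 and Spearman's rho -0.48, and over 11619 genes with a GC value they were -0.20 and -0.38. All genes tested were cut into equal classes of low, middle and high GC content, and the median difference of that library was 0.09 on the log2 scale over the 23 members of low GC content, 0.04 over the 17 of middle and -0.02 over the 11 of high GC content. The members that fell numbered 7, 2 and 4 in these classes. The log2 fold change correlated with GC content at r = 0.25 and rho = 0.19 over the members, and at 0.06 and 0.05 without that library. Without it 18 members fell in place of 13, while the genes that fell over the whole table went from 1111 to 1643, and the median log2 fold change over the 51 was -0.08.

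**Figure D4:**
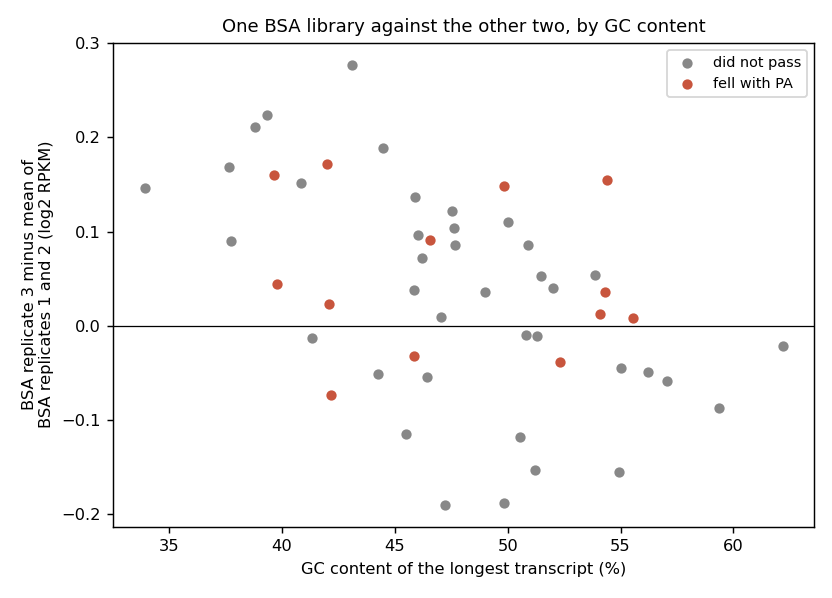
Difference of BSA replicate 3 from the mean of BSA replicates 1 and 2 (log2 RPKM) against the GC content (percent) of the longest transcript, with 1 point per tested splicing gene and red points for the 13 that fell. The points slope downwards (r = -0.48 over 51 genes), and the red points lie in its middle, between 39.7% and 55.5% GC.

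Each gene's length was recovered from its RPKM values, as the smallest length that turned them into whole reads. By this recovered length, the members that fell were shorter than those that did not pass, with a median of 974 bases against 2447 bases. Their median BSA level was 80.5 RPKM against 62.3 RPKM, and their median GC content 46.6% against 47.6%. Across the 51 members, which share libraries and hence depth, the log2 fold change went with the logarithm of length at r = 0.28 and with length at rho = 0.33. The part of this recovered length in the declines was not tested. The analysis with GC and length trends removed used another length, that of the longest GENCODE transcript. The 2 lengths were far apart for Lsm8 (750 bases recovered, 3305 in the transcript) and Snrpc (760 and 6107). They were close for Sf3b1 (6191 and 6195). In that analysis the 9.80% of members that fell lay close to the 9.44% of all genes.

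**Figure D5:**
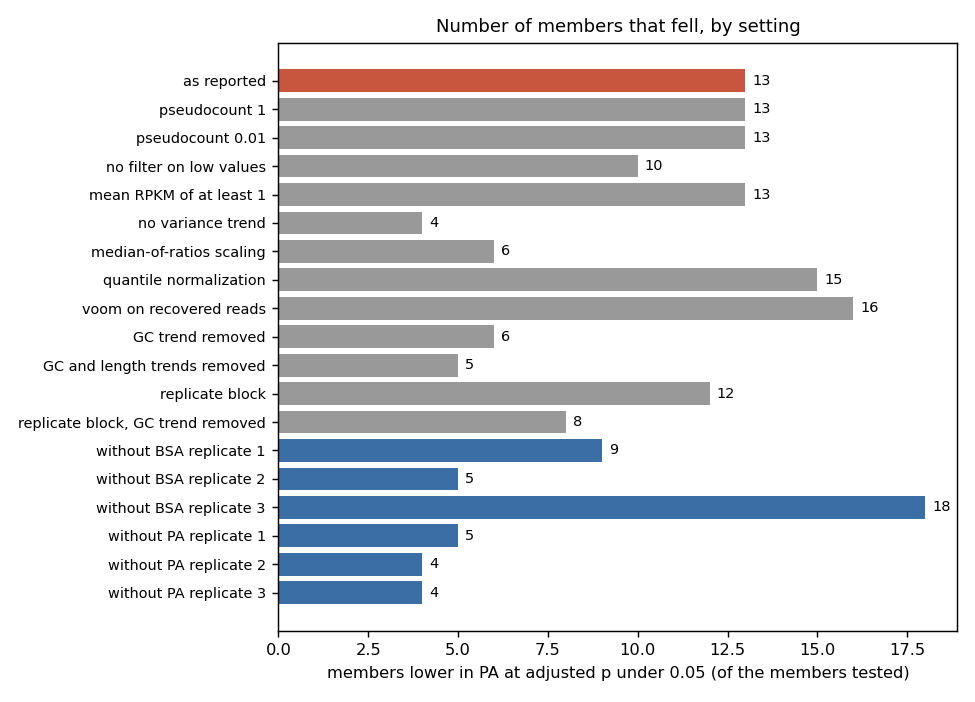
Number of the 51 tested splicing genes lower in PA at adjusted p under 0.05 as reported (red), under 12 other settings (grey) and with 1 library left out (blue). The bars run from 4 to 18, around 13 as reported.

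Genes of the same machinery that the rule did not take in were counted in the same way. Over 8 lists with 114 tested genes, 15 fell (13.2%) and none rose, at a median log2 fold change of -0.08, beside the 9.52% and 11.2% of all genes given above. Without BSA replicate 1, 2 and 3 the 15 became 12 (10.5%), 8 (7.02%) and 17 (14.9%), beside 5.39%, 3.97% and 14.1% of all genes. Without PA replicate 1, 2 and 3 they became 7 (6.14%), 4 (3.51%) and 5 (4.39%), beside 6.76%, 3.35% and 3.78% of all genes. They became 7 with median-of-ratios scaling (6.14%, beside 6.91% of all genes) and 9 with the GC trend removed (7.89%, beside 9.07%). Of 12 U2-associated genes 3 fell: Rbm5 (log2 fold change -0.21, limma adjusted p = 0.0074), a regulator of splice-site choice, Htatsf1 (-0.21, adjusted p = 0.0245) and Puf60 (-0.12, adjusted p = 0.0297). Of 9 exon junction complex genes 3 fell: the core subunit Magoh (-0.17, adjusted p = 0.0454), its near-identical paralog Magohb (-0.25, adjusted p = 0.0314), and the helicase Eif4a3 (-0.17, adjusted p = 0.0214). Reads of Magoh and Magohb could be split between them, so both values are uncertain. None of the 9 exon junction genes fell without BSA replicate 1, without PA replicate 1, 2 or 3, or with median-of-ratios scaling, and 1 did with the GC trend removed. Of 29 Prpf19 complex and catalytic-step genes 4 fell, led by Gpkow (-0.21, adjusted p = 0.0164), Xab2 (-0.14, adjusted p = 0.0264) and Rbm22 (-0.14, adjusted p = 0.0255). Of 15 further snRNP proteins Snrnp27 fell (-0.12, adjusted p = 0.0390).

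Of the genes that build and import snRNPs, 3 of 20 fell: Gemin2 (log2 fold change -0.24, limma adjusted p = 0.0457) and Gemin4 (-0.21, adjusted p = 0.0102) of the SMN complex, which loads Sm rings onto snRNA, and Ncbp2 (-0.21, adjusted p = 0.0109), the small subunit of the cap-binding complex. Gemin4 measured 21.7, 22.7 and 22.7 RPKM in BSA and 18.8, 19.5 and 19.8 RPKM in PA. Of 7 tested partners of U7 and histone mRNA, Slbp, the histone stem-loop binding protein, fell from 75.8, 77.4 and 83.0 RPKM to 67.2, 64.96 and 63.9 RPKM (-0.27, adjusted p = 0.0042). Rbm5, Gemin4 and Slbp passed in all 18 alternatives. Ncbp2 passed in 17, Gpkow in 16, Htatsf1 in 14, Rbm22 in 13, and Xab2, Magohb and Eif4a3 in 10. Puf60 and Magoh passed in 8, Snrnp27 in 6 and Gemin2 in 5. With 1 library left out, 1 to 3 of the U2-associated genes fell. The range was 1 to 4 for the Prpf19 complex and catalytic-step genes, and 1 to 4 for the assembly and import genes. None of the 12 minor spliceosome genes passed limma's test (0 at an unadjusted p under 0.05 and 0 by voom), and none of the 10 decay partners of the cytoplasmic LSM ring did (1 lower at an unadjusted p under 0.05, 0 by voom).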

How the data were processed

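Immortalized wild-type PTECs were treated for 6 hours with BSA or PA-bound BSA, and poly(A)-selected RNA was sequenced, with 3 libraries in each group. Per the submitters' processing notes and the study's methods, base calls were made with bcl2fastq and reads were mapped to GRCm38/mm10 with TopHat2 2.1.1. No read counter, gene annotation or strand setting of the counting is given in the sources used here. A university center and a company did the sequencing, and which libraries each handled is not stated, so a batch between them cannot be told apart from the rest. The authors deposited 1 table of RPKM values for 24421 genes. The deposited table also held the log2 fold changes and p-values (p and FDR) of the authors' own edgeR test and a ranking score, none of which was used. Columns were matched to samples by the initial of the treatment and the number in the sample title.

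Genes with a mean of at least 0.5 RPKM were tested with limma 3.58.1 in R 4.3.3 (lmFit, eBayes with a variance trend, two-sided) on log2(RPKM + 0.1), with Benjamini-Hochberg adjustment over all 11671 genes and calls at an adjusted p under 0.05; fold changes on this scale understate the change of low genes. No count test was the main one because the table holds RPKM. The low RPKM values were whole multiples of 1 read in 100% of genes (tolerance 1e-06), which gave library sizes of 17679817 to 21568228 reads; voom on these reads, an alternative, called 1437 genes lower and 1483 higher. The script was tested on simulated data.

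The members and lists were chosen with earlier results of these data known. Named with the RPKM of each library were every member past the test, every tested member of the Sm ring, LSM rings and SF3B, and of other families the 2 most abundant members that did not pass; a member under the expression minimum was named with its range; of other lists, up to 3 members in each direction with the largest fold change past the test were named. The values of 1 member that this rule would name are not reported here. Alternatives covered pseudocounts of 1 and 0.01, filters on low values, the variance model, scaling, GC and length trends, a replicate block and leaving out each library. GC content, the transcript length of the length trend and gene positions came from GENCODE vM21. Exon bases shared with another gene were found for 16 of the 52 members. Promoters came from RefSeq (GRCm38.p6). Figures were drawn with matplotlib 3.10.9.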

Additional observations from a re-analysis of the deposited data

How the results depend on the processing

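Over 18 alternatives, the 13 members that fell kept their direction in all 234 values, and 82 of these values missed the threshold; 2 members, Zmat2 and Lsm8, passed in every alternative. The number of members that fell was 4 without the variance trend (7.84%, beside 6.43% of all genes), 6 with median-of-ratios scaling (11.8%, 6.91%), 6 with the GC trend removed (11.8%, 9.07%), 5 with GC and length trends removed (9.80%, 9.44%) and 8 with the replicate block and the GC trend removed (15.7%, 9.88%). It ranged from 4 to 18 when 1 library was left out, where the genes that fell over the whole table ranged from 391 to 1643. With pseudocounts of 1 and 0.01 the number of members that fell was 13 in both, beside 1130 and 1120 of all genes. It was 13 with a minimum of 1 RPKM (beside 1149 of 10866 genes) and 10 with no filter (beside 739 of 19127). Quantile normalization gave 15 members and voom 16, where the genes that fell over the whole table also rose, from 1111 to 1282 and 1437. The number that rose was 0 except for 1 with the GC trend removed and 1 with GC and length trends removed (Lsm10 in both). The median log2 fold change of the members was -0.0747 with median-of-ratios scaling against -0.0975 as reported. That scaling also moved the calls over all genes from 1302 higher and 1111 lower to 1485 and 806. The cause of these shifts was not tested. Depth limits the least covered members: voom on recovered reads gave an adjusted p of 0.152 for U2af1l4 (263 to 349 reads in a library) and 0.248 for Lsm10 (137 to 195 reads).

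Members near 0 that had not passed changed sign in 31 of 684 values. Lsm5 was at 0.0109 with the GC trend removed, with or without the replicate block, and at 0.0685 with GC and length trends removed; Lsm4 was at 0.0105 and 0.0564 in these settings and at 0.0163 with median-of-ratios scaling; Lsm14a was at 0.0074, 0.0061 and 0.0198. Prpf19 was at -0.0006 with voom and -0.0111 with GC and length trends removed, Snrpf at 0.0054 with both trends removed, and Sf3b4 and Prpf3 at -0.0017 and -0.0021 with quantile normalization. With 1 library left out, the log2 fold change ranged from -0.1123 to 0.0219 for Lsm5, -0.0355 to 0.0112 for Lsm4, -0.0409 to 0.0289 for Lsm14a, -0.0383 to 0.0310 for Prpf19, 0.0000 to 0.0566 for Sf3b4, -0.0951 to 0.0032 for Snrpa1, -0.0784 to 0.0377 for Prpf38b and -0.0055 to 0.0588 for Prpf3.

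Same-numbered BSA and PA libraries deviated together at r of 0.0348, -0.0356 and 0.0942. Pairs of unlike number ran from -0.1025 to 0.0736. With 3 libraries in each group, these values cannot show whether same-numbered libraries were grown or handled together. The sample titles give only a number. With the replicate block 12 members fell (23.5%, beside 10.6% of all genes).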
